A study of Xenopus tropicalis with 12 samples.

Results

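In tadpole tail, 1607 places near the ends of the chromosomes gave a peak in most, but not all, ChIP-seq libraries made with a TR (thyroid hormone receptor) antibody. They are called end regions here. A region is a stretch where peaks of different libraries overlap by at least 1 bp, and the 12 peak lists merged into 256032 regions. An end region had a peak in 8 to 11 of the 12 lists, and its midpoint lay in the first or last 10% of its chromosome, taking the largest end of any peak as the chromosome length. The remaining 755 regions of 8 to 11 lists lay further in and are called interior regions. The regions were thus chosen by measured values, the number of lists with a peak and the position of the peaks, and both are given below as descriptions without a test.

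The samples were tails of Xenopus tropicalis at around stage 54, before the tail is resorbed. KO T3 tadpoles were TRα (-/-), without a working gene for that receptor, and were treated for 18 hours with T3 (the active form of the hormone) at 10 nM. KO control tadpoles had the same genotype and no T3. WT T3 and WT control tadpoles were wild type, with and without the same treatment, and all shared the same parents. Each group had 3 libraries. A design note, though it speaks of RNA, calls them technical replicates of material merged from several tadpoles, so p-values here may reflect technical spread alone. The gene for TRβ was not the one mutated, and the labels do not say which receptor the antibody binds. Whole tail was used, so a change in the share of cells carrying a protein and a change per cell cannot be told apart.

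TRs are nuclear receptors that sit on chromatin with and without hormone, usually paired with a retinoid X receptor. Without hormone they recruit corepressors, and with T3 they recruit coactivators, which is how T3 starts metamorphosis, including the loss of the tail. Chromosome ends are known in this frog, as in other vertebrates, for frequent recombination, high GC content and many repeats. Base composition and repeats of the regions were not analysed here, since no genome of build 9.1, the build of the peak lists, was used here.

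Depth differed widely and touches each result below. Fragments per library ranged between 149532 (KO T3 3) and 1547243 (KO T3 2), and the 3 shallowest were KO T3 3, KO control 1 and WT T3 1. No input library was used in peak calling, so a peak marks more fragments than in its surroundings and cannot separate binding by the antibody from a place that is over-represented for other reasons.

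Regions shared by many libraries lay mostly near chromosome ends. Of the 2362 regions of 8 to 11 lists, 68.0% were end regions, while both end stretches together make up 20% of the length. Of the 225389 regions seen in a single list, 19.6% lay there. The share was 33.2% for regions of 2 lists, 53.6% for 3 lists and 65.5% for 7 lists, and 66.9% for the 384 regions of all 12 lists. The share was higher with each of the first 6 list counts and between 64.6% and 69.2% from 7 lists on. Each group showed this by itself, counting regions with a peak in all 3 of its lists: 68.1% of 1616 regions lay near ends in KO T3, 64.4% of 1305 in KO control, 66.7% of 1397 in WT T3 and 67.5% of 2756 in WT control. These 4 sets share no library, but a region can be in several. Of single peaks, 27.0% (KO control 2) to 42.3% (KO T3 2) of a list lay near ends.

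**Figure D1:**
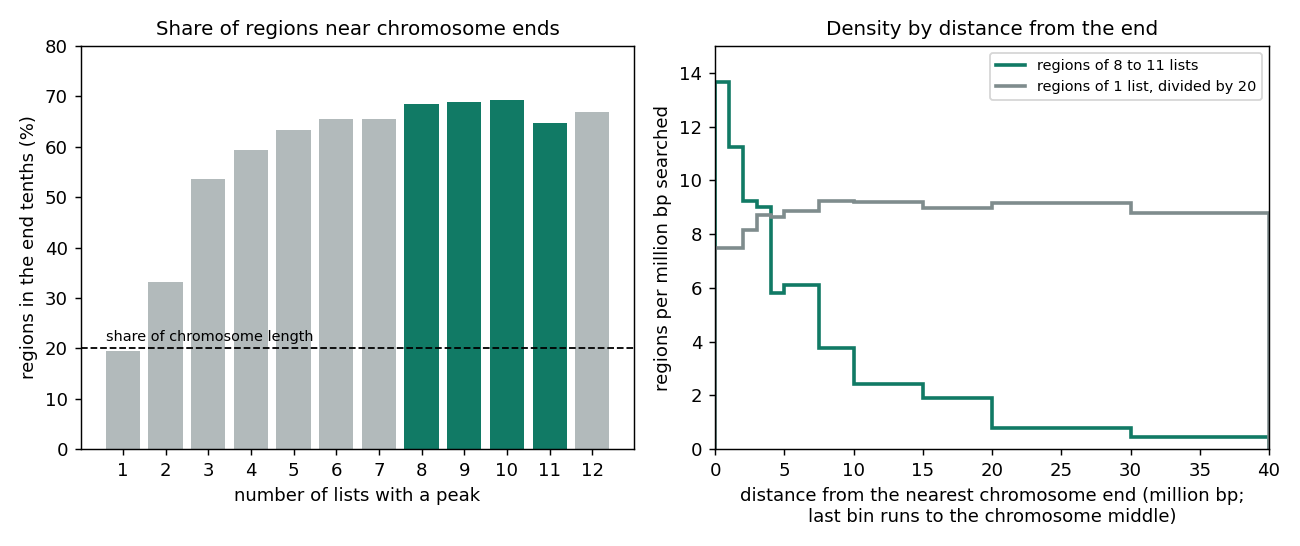
Left, the percentage of regions in the first or last 10% of their chromosome, by the number of lists with a peak, with end regions among the dark bars of 8 to 11 lists and the dashed line at 20% of chromosome length; right, regions per Mb by distance from the nearest chromosome end. The share goes up to 69.2% at 10 lists, and the density of regions of 8 to 11 lists declines from 13.7 per Mb in the outermost Mb to 0.449 beyond 30 Mb, while single-list regions (drawn divided by 20) stay between 150 and 185.

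The density was highest in the outermost Mb and lower further in. Regions of 8 to 11 lists numbered 13.7 per Mb in the outermost Mb, 11.3 in the next, 9.25 between 2 and 3 Mb, 5.8 between 4 and 5 Mb, 6.12 between 5 and 7.5 Mb and 2.42 between 10 and 15 Mb. Single-list regions, at 149.5 per Mb in the outermost Mb and 184.1 between 10 and 15 Mb, were slightly sparser at the ends. Within 2 Mb of an end lay 498 end regions, 30.99% of all.

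All 10 chromosomes and all 20 ends carried end regions. Their density was 4.80 per Mb (chromosome 4) to 11.1 (chromosome 10) in the end stretches, against 0.401 (chromosome 3) to 2.75 (chromosome 10) interior regions per Mb, and the end stretches were denser on each of the 10. The ends differed: chromosome 5 had 116 at its low end, which is where coordinates begin, and 49 at its high end, whereas chromosome 6 had 66 and 119. Chromosome 8 had 94 at each end. The smallest chromosomes had the lowest share of their 8-to-11-list regions near ends, 50.3% on chromosome 10 and 56.0% on chromosome 9, against 79.0% on chromosome 3; the end stretch of a small chromosome is also shorter.

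The outermost region lay 2327 to 236254 bp from its chromosome end, with a median of 42457 bp over the 20 ends. The closest was chr1:1819-2835 (build 9.1, as all coordinates here), with 7, 16 and 1 fragments at the summit in KO T3 1 to 3 and 2 and 7 in KO control 2 and 3. It had 7 and 9 in WT T3 2 and 3 and 8 in WT control 2. The region at chr10:6419-7112 had peaks in 10 lists, with 3 to 14 fragments. The region at chr2:6467-7677 had peaks in 9 lists, with 4 to 24 fragments. Their medians over the lists with a peak were 8.35, 8.29 and 12.7 FPM in that order (FPM, fragments over the summit per 1000000 fragments of the library), above the 7.78 FPM of the median end region.

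Regions on both sides of the borders had levels in a similar range. The 2 just inside at the low ends were chr2:17008721-17009290 and chr2:16953223-16953920, each in 10 lists, with medians of 6.77 and 9.23 FPM over the lists with a peak. The 2 just outside were chr2:17039919-17041527 (9 lists, median 7.23 FPM) and chr3:13780801-13781838 (8 lists, 5.10 FPM). At the high ends the 2 just inside were chr2:153182346-153183205 and chr3:123507913-123508807 (8 lists each, 5.74 and 6.28 FPM), and the 2 just outside were chr6:121517495-121517847 (8 lists, 12.7 FPM) and chr10:35910102-35910558 (9 lists, 8.78 FPM). By lists, 555 end regions sat at the lowest allowed number, 8, and 657 regions near ends had 7 and were left out. At the other side 274 had 11, and 257 regions near ends had all 12.

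End regions stood high within their lists but rested on few fragments, and taller ones were found in more lists. The measure is the pileup, the number of fragments over the peak's summit, in FPM. The level of an end region, its median over the lists with a peak, was 2.91 to 42.3 FPM, with quartiles of 6.30, 7.78 and 10.5 FPM. It was 6.65 FPM for end regions of 8 lists, 7.23 for 9 and 12.2 for 11. Level and list count are not independent, since a list has a peak only where its pileup passes the caller's threshold. The 3 shallowest lists, which begin at 6.68 to 7.03 FPM, can also enter the median more often in regions of more lists. In fragments, the median end region had 3 (KO T3 3, KO control 1 and WT T3 1) to 11 (KO T3 2) at the summit, against a median of 2 to 4 for all peaks of a list. The median end region stood at the 76.0th (WT T3 1) to 94.0th (WT T3 3) percentile of pileup within its list. Interior regions had a median level of 8.50 FPM, and their library median was higher than that of end regions in 9 libraries and equal in 3.

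By group, the mean of the 3 library medians was 11.5 ± 7.42 FPM in KO T3, 8.59 ± 1.80 in KO control, 9.50 ± 0.492 in WT T3 and 7.46 ± 0.777 in WT control (SD, n = 3 libraries each). The spread within KO T3 is larger than the differences between the groups. The KO T3 libraries had 7.31, 7.11 and 20.1 FPM, and the last is KO T3 3, where a single fragment is worth 6.69 FPM. Without it, the KO T3 mean was 7.21. With 0 for a missing peak the means were 4.40 FPM in KO T3, 4.53 in KO control, 7.33 in WT T3 and 6.77 in WT control. KO T3 3 and KO control 1 lacked a peak at 54.4% and 57.2% of end regions, so their medians were then 0. WT T3 1 lacked 48.0% and kept a median above 0. Each KO mean thus holds a 0 from a shallow library, and no order of the groups is read from these means. Over lists with a peak, the KO control libraries had 10.5, 8.24 and 6.99, the WT T3 libraries 10.0, 9.45 and 9.04, and the WT control libraries 8.33, 6.83 and 7.23 FPM. All 3 WT T3 medians were above all 3 WT control medians, and the WT T3 libraries were on average shallower (534284 ± 237428 fragments) than the WT control libraries (962600 ± 454509 fragments; SD, n = 3). The part of depth in this difference was not tested.

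**Figure D2:**
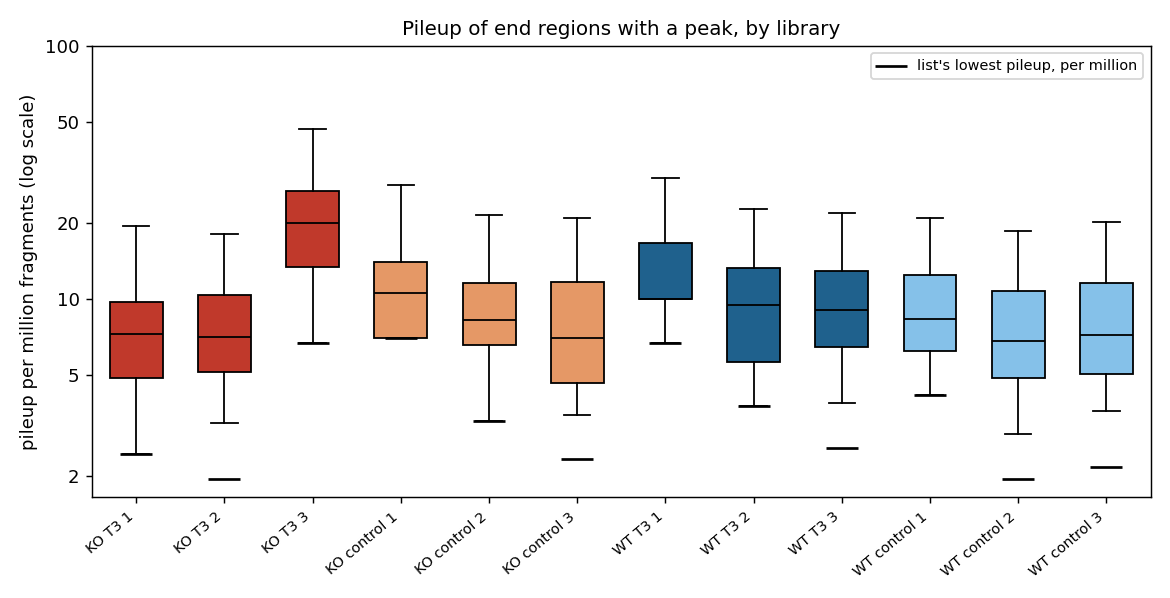
Pileup in FPM (log scale) of end regions with a peak, in each of the 12 libraries: box, quartiles with the median line; whiskers, 5th to 95th percentile; bar, the lowest pileup of that list. KO T3 3, with 149532 fragments, has the highest median, 20.1 FPM, and in the 3 shallowest libraries the lowest possible value is 6.68 to 7.03 FPM.

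Which lists lacked a peak followed depth. Over the end regions and lists 4482 peaks were missing, and 2566 of these (57.3%) were in the 3 shallowest libraries. KO control 1 lacked a peak at 919 end regions (57.2%), KO T3 3 at 875 (54.4%) and WT T3 1 at 772 (48.0%). At interior regions the same lists lacked 55.0%, 59.2% and 47.5%. WT control 1 lacked 446, WT T3 2 lacked 363 and KO control 2 lacked 310. The 6 deepest lacked 213 (KO control 3), 196 (KO T3 1), 192 (WT T3 3), 92 (WT control 2), 68 (WT control 3) and 36 (KO T3 2). The order ran opposite to depth with these exceptions: KO T3 3, the shallowest, lacked fewer than KO control 1, and WT T3 3 lacked fewer than KO T3 1, and KO T3 1 fewer than KO control 3, though each was the shallower of its pair. KO T3 3 was also the list that held peaks of 1 fragment, where the others began at 2 or 3.

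For each missing peak, a number of fragments was reckoned and set beside the lowest pileup of its list. Taking each region's median level and the depth of the library without a peak, the median missing peak would have had 1.12 fragments in KO T3 3, 2.12 in KO control 1 and 2.11 in WT T3 1. The reckoned number was under the lowest pileup of the list for 36.6%, 45.8% and 42.1% of their missing peaks, and not under it for the rest. The level comes only from lists with a peak, and the lowest pileup of a list is not the caller's local threshold. The part of depth in the missing peaks was not tested. In the 3 deepest libraries the same reckoning gave 10.2 (KO T3 2), 9.67 (WT control 3) and 6.92 fragments (WT control 2), and none of their missing peaks fell under the lowest pileup. Of the 274 end regions of 11 lists, 86 lacked KO control 1, 77 KO T3 3 and 44 WT T3 1, while none lacked KO T3 2 and 2 each lacked WT control 2 and WT control 3. For 417 end regions (25.9%) every missing peak was in those 3 shallow libraries.

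**Figure D3:**
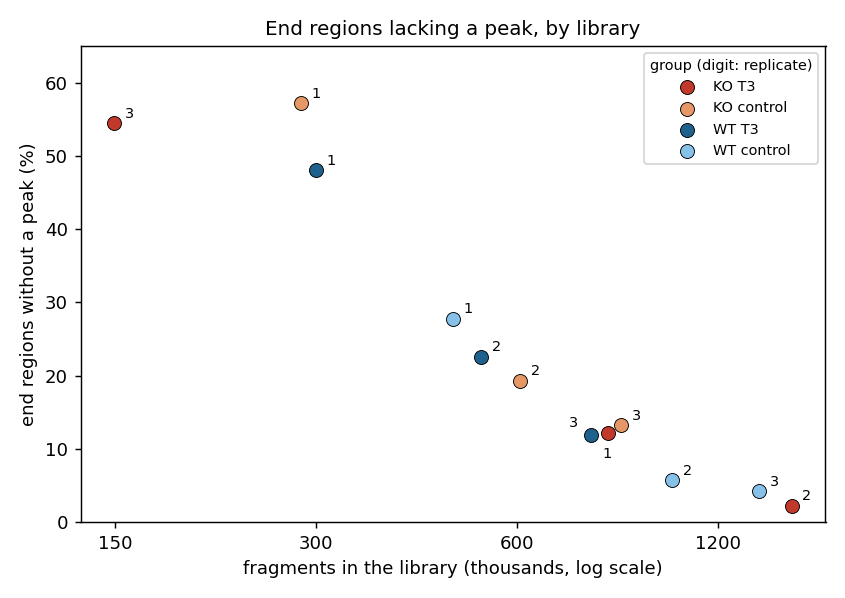
Percentage of the 1607 end regions without a peak (vertical axis) against the fragments in the library (log scale), 1 point per library, coloured by group with the replicate number beside it. The 3 shallowest libraries lack 48.0% to 57.2%, and the 3 deepest lack 2.24% to 5.72%.

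By group, 92.3% of end regions were found in 2 or 3 of the KO T3 lists. The share was 81.3% in the KO control lists, 84.0% in the WT T3 lists and 97.1% in the WT control lists. Of the 1607 end regions, 1 lacked all 3 KO T3 lists, 13 all KO control lists, 19 all WT T3 lists and 1 all WT control lists. The same counts over interior regions are not given here, and the shares that follow cover regions of 9 lists only. Of the 432 end regions of 9 lists, 4 lacked exactly the WT T3 lists and had the other 9. Among all 628 regions of 9 lists lacking exactly 1 whole group made up 0% (KO T3), 0.159% (KO control), 0.796% (WT T3) and 0% (WT control). The pattern is part of what chose the regions, so nothing is read from it.

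Of these 4, the region at chr3:942852-943624 had 6, 17 and 3 fragments in KO T3 and 3, 6 and 14 in KO control. The WT control libraries had 4, 9 and 8 there. The region at chr1:9840372-9841557 had 3, 16 and 3 fragments in KO T3 and 2, 2 and 6 in KO control. The WT control libraries had 2, 5 and 4 there. The region at chr9:4107090-4108069 had 7, 8 and 2 fragments in KO T3 and 3, 3 and 5 in KO control. The WT control libraries had 3, 10 and 5 there. No library had more than 17 fragments at any of the 3.

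Pileup was compared between groups with limma on log2 FPM. It is not independent of the choice of regions, since a list has a peak only where its pileup passes the caller's threshold, but the rule did not use the groups. Regions with at least 8 lists, and at least 2 in each group, were fitted together (1776 regions), a list without a peak was dropped for that region, and p-values were adjusted over all 1776 by the Benjamini-Hochberg method. Of the end regions, 923 could be fitted and 684 could not, since they had under 2 lists in some group. Only called peaks enter, so a region whose signal vanished in a group is not in this test.

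In tails without TRα, T3 went with a lower pileup at 4 end regions and a higher one at 2, which is 6 of 923 (0.650%). The background was 2.42% of the 1776 regions called, 1.8% higher and 0.619% lower, so the share among end regions was below it. The 1776 hold the 923 end regions, 469 interior regions and 384 regions of all 12 lists, which have no missing peak. A share for interior regions alone is not given here, so the lower share is not read as a weaker response at ends. Scaling by the regions of all 12 lists moved the median log2 difference of all regions by -0.30 and turned the split over all regions into 5 higher and 13 lower, where it was 32 and 11, while end regions had 1 higher and 5 lower. At a stricter peak threshold (−log10 q of at least 5) 5 end regions were higher and 1 lower. That fit held none of the 6 regions called here, so its calls are at other regions. Without KO T3 2 the split was 4 higher and 3 lower. Those settings called 30 of 401 and 32 of 1776 regions in all. In all 4 lower regions the KO control values lay above those of every other library with a peak. Those from 1060211 on chromosome 5, 135051044 on chromosome 6 and 193434415 on chromosome 1 had 9, 10 and 8 lists. Each reached the minimum of 8 only with its KO control lists, so their p-values are not independent of their choice.

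The region at chr5:1060211-1061079 had 6.10 and 4.52 FPM in KO T3 1 and 2 (no peak in KO T3 3), against 59.8, 74.2 and 66.4 in KO control 1 to 3. WT T3 2 and 3 had 13.2 and 2.58 FPM, WT control 2 and 3 had 8.78 and 6.51, and WT T3 1 and WT control 1 had no peak. The KO control libraries were above all others without overlap. In fragments the KO control libraries had 17, 45 and 57 and no other library more than 9. The difference between KO T3 and KO control was -3.66 on the log2 scale (SE 0.570, limma adjusted p = 0.000545), a level 12.7-fold lower in KO T3. The region is 869 bp long and 1060645 bp from its chromosome end.

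The region at chr6:135051044-135051664, 83442 bp from the end of its chromosome, was also highest in KO control. It had 10.97, 5.82 and 13.4 FPM in KO T3, against 70.3, 79.1 and 59.4 in KO control. WT T3 2 and 3 had 11.3 and 12.9 FPM and WT control 2 and 3 had 5.85 and 9.40, with no peak in WT T3 1 and WT control 1. The KO control libraries were again above all others. KO T3 was lower than KO control by 2.87 on the log2 scale (log2 fold change -2.87, SE 0.418, limma adjusted p = 0.000245).

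The region at chr9:3883744-3884329 had the highest values of the 3. It had 19.5, 14.9 and 46.8 FPM in KO T3, against 112.5, 115.4 and 94.4 in KO control, which are 32, 70 and 81 fragments. WT T3 1 and 2 had 23.4 and 13.2 FPM, with no peak in WT T3 3, and WT control had 14.6, 15.6 and 21.0. The 46.8 of KO T3 3 rests on 7 fragments. The log2 fold change, KO T3 over KO control, was -2.17 (SE 0.393, limma adjusted p = 0.00207). This call was lost (adjusted p = 0.0866) when lists without a peak took their lowest pileup, also over all regions of 8 lists or more (0.0885). The adjusted p ranged from 6.86e-07 to 0.0885 over 20 alternatives.

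The calls of the other 3 regions of this comparison were lost without single libraries. The region at chr1:193434415-193435096 had 3.66 and 2.59 FPM in KO T3 1 and 2, against 13.2 and 19.8 in KO control 2 and 3, and no peak in KO T3 3 and KO control 1. Its log2 fold change was -2.39 (SE 0.585, limma adjusted p = 0.0290), and the call was lost in 7 of 19 alternatives (adjusted p from 0.00701 to 0.257), among them leaving out KO T3 1 or 2 or KO control 2 or 3. The region at chr2:160617042-160617745 had 41.4, 24.6 and 80.3 FPM in KO T3, against 13.2 and 5.83 in KO control 2 and 3 and none called in KO control 1. WT T3 had 13.4, 32.1 and 31.0 FPM and WT control had 14.6, 28.3 and 19.5, so KO T3 overlapped the WT groups and KO control lay below all other libraries. Its log2 fold change was 2.31 (SE 0.526, limma adjusted p = 0.0146), with adjusted p = 0.0584 without KO T3 3 and 0.332 without KO control 3, and from 0.00487 to 0.332 over all alternatives. The region at chr6:8463961-8465150 had 10.97, 9.05 and 46.8 FPM in KO T3, against 3.30 and 2.33 in KO control 2 and 3, which are 2 fragments each. Its log2 fold change was 2.59 (SE 0.669, limma adjusted p = 0.0351), and the call was lost in 12 of 19 alternatives (adjusted p from 0.0211 to 0.332), such as without KO T3 3, KO control 2, KO control 3, WT T3 2, WT T3 3 or WT control 1.

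**Figure D4:**
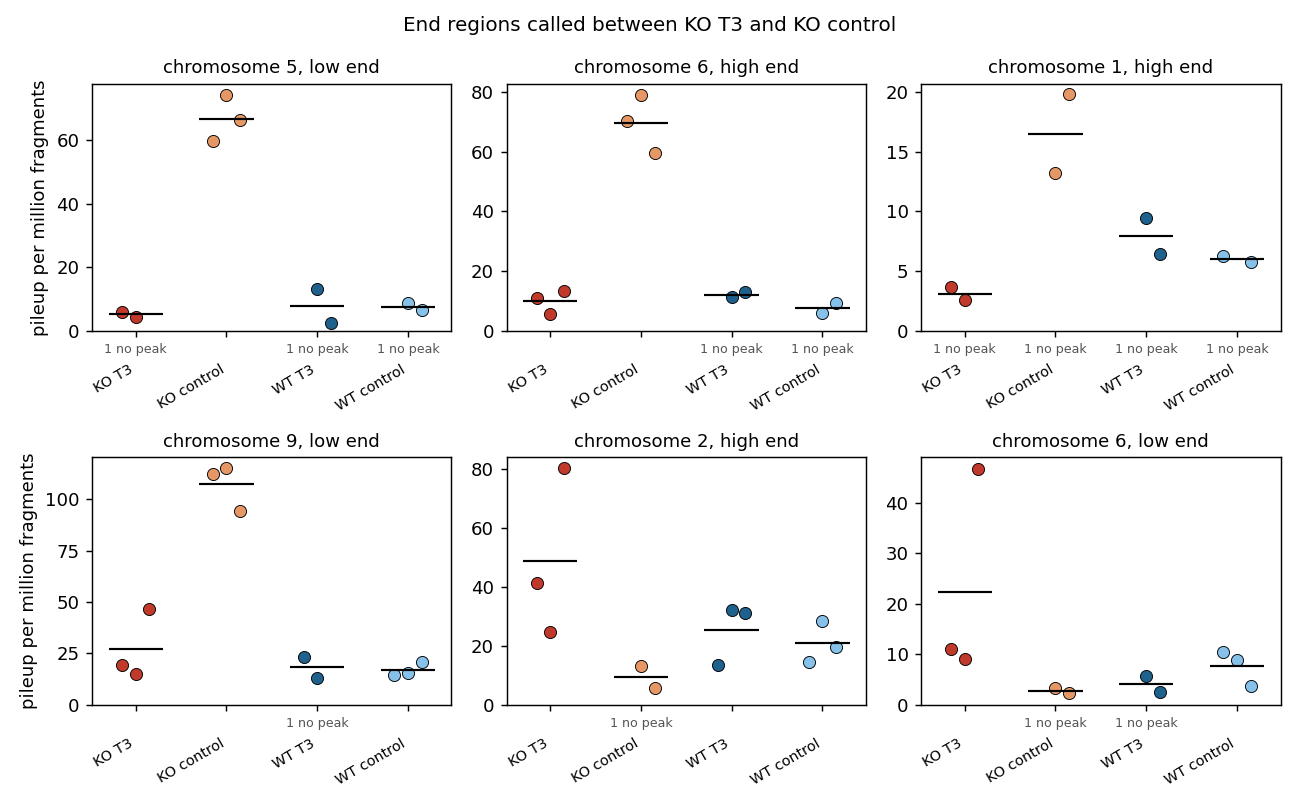
Pileup in FPM (vertical axes from 0) at the 6 end regions called between KO T3 and KO control, 1 panel per region and 1 point per library with a peak; lines are group means and the grey text counts libraries without a peak. At the chromosome 5, 9 and high-end chromosome 6 regions the KO control libraries (59.4 to 115.4 FPM) lie above all others.

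Without T3, the loss of TRα went with a higher pileup at 3 end regions of 923 (0.325%) and a lower one at none, and these were the first 3 regions described above, on chromosomes 5, 6 and 9. The background was 1.63% called, 0.45% higher and 1.18% lower, and none of those 21 lower regions was an end region. With 12-list scaling the split over all regions was 22 higher and 21 lower, and 5 end regions were higher and none lower. Lower end regions were called too with library weights (4 higher and 4 lower, 58 of 1776 regions in all). The same held without the 3 shallowest libraries (3 and 3, 47 in all) and without KO T3 3 (5 and 2, 54 in all). At the stricter threshold the split was 4 and 1, with 29 of 401 in all. With the values above, KO control averaged 69.6 ± 9.86 FPM (SD, n = 3) at chr6:135051044-135051664 and WT control 7.63 ± 2.51 (SD, n = 2 with a peak), a log2 fold change of 3.22 (SE 0.467, limma adjusted p = 0.000133). At chr9:3883744-3884329 KO control averaged 107.4 ± 11.4 and WT control 17.1 ± 3.43 FPM (SD, n = 3 each), with a log2 fold change of 2.67 (SE 0.393, limma adjusted p = 0.000133). At chr5:1060211-1061079 KO control averaged 66.8 ± 7.21 (SD, n = 3) and WT control 7.64 ± 1.61 FPM (SD, n = 2), with a log2 fold change of 3.14 (SE 0.570, limma adjusted p = 0.00165). These 3 calls held in every alternative that included them (19, 20 and 19), with a largest adjusted p of 0.0112, 0.0199 and 0.0484 in the same order. The comparisons with KO T3 and with WT control share the KO control libraries, so they are not separate evidence. The stricter threshold held none of these 3 regions. Those on chromosomes 5 and 6 reached the minimum of 8 lists only with their KO control lists, as stated above.

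In wild-type tails T3 went with no called change. None of the 923 end regions passed, against 0% of all 1776; at an unadjusted p under 0.05 there were 47 end regions (5.09%) of 87 in all (4.90%). The median log2 difference was 0.26 over end regions and 0.24 over all regions tested, WT T3 minus WT control. Scaling by the regions of all 12 lists in place of fragments moves libraries by -0.23 (KO control 3) to 0.61 (KO T3 3) on the log2 scale, and the median of all regions in this comparison becomes 0.14, so a general shift of this size is not read as a change. The 2 end regions with the smallest p are values only. At chr6:127056849-127057692 WT T3 2 and 3 had 3.78 and 3.88 FPM, against 14.6, 11.7 and 15.2 in WT control (log2 difference -1.84, SE 0.491, limma adjusted p = 0.504), and no value of one group overlapped the other. The WT T3 values here rest on 2 and 3 fragments, where 2 is the lowest pileup of both lists, and WT T3 1 had no peak. At chr2:864365-865874 WT T3 had 30.1, 32.1 and 28.4 FPM, against 8.33, 10.7 and 10.1 in WT control (log2 difference 1.64, SE 0.436, limma adjusted p = 0.504). Those 3 WT T3 values were also above the KO libraries with a peak, which ran from 5.17 to 11.7 FPM.

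After T3, the loss of TRα gave no call, 0 of 923 end regions against 0% of all 1776. At an unadjusted limma p under 0.05 there were 54 end regions (5.85%) of 118 in all (6.64%). The same 2 regions had the smallest p. At chr2:864365-865874 KO T3 1 and 2 had 9.75 and 5.17 FPM, against the WT T3 values above (log2 difference -2.09, SE 0.488, limma adjusted p = 0.262). It passed in 1 of 19 alternatives, with library weights (adjusted p = 0.0103, range 0.0103 to 0.638). At chr6:127056849-127057692 KO T3 had 13.4, 11.6 and 20.1 FPM, against 3.78 and 3.88 in WT T3 2 and 3 (log2 difference 1.93, SE 0.491, limma adjusted p = 0.262). The WT T3 values are the same 2 and 3 fragments as above.

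Over both genotypes, T3 against control called 1 end region, lower (0.108% of 923), against 0.563% of all regions, 0.45% higher and 0.113% lower. With 12-list scaling the split over all regions was 1 higher and 9 lower, where it was 8 and 2, and 3 end regions were lower. Higher end regions were called with library weights (2 higher and 3 lower, 26 of 1776 in all) and without the 3 shallowest libraries (3 and 2, 24 in all). They were also called at the stricter threshold (2 and 1, 13 of 401) and among regions of 11 or 12 lists (2 and 1, 21 of 808). Without KO T3 1 the split was 1 and 1 (6 in all), and without KO T3 2 it was 1 and 0 (8 in all). The called region was chr5:1060211-1061079 (log2 difference -2.02, SE 0.423, limma adjusted p = 0.0222), with the values given above, and it was lost in 8 of 19 alternatives (adjusted p from 0.000283 to 0.124), among them leaving out KO T3 2, KO control 2 or 3, WT T3 3 or any 1 WT control library. At this chromosome 5 region KO T3 averaged 5.31 FPM against 66.8 in KO control. WT T3 averaged 7.90 ± 7.52 FPM against 7.64 ± 1.61 in WT control (SD, n = 2 each). The WT T3 values, 13.2 and 2.58 FPM, lay on both sides of the WT control values, 8.78 and 6.51. No direction is therefore read for wild type, and the fit used log2 values rather than these means. Over both treatments, KO against WT called 3, with 2 higher and 1 lower, against 1.63% of all regions, 0.394% higher and 1.24% lower. With 12-list scaling 4 end regions were higher and 1 lower, against 9 and 20 over all regions. The split turned with library weights (3 higher and 6 lower, 49 of 1776 in all) and without KO T3 3 (4 higher and 5 lower, 42 in all). The 2 higher ones were the chromosome 9 region from 3883744 (log2 difference 1.55, SE 0.295, limma adjusted p = 0.00341) and the chromosome 6 region from 135051044 (1.43, SE 0.330, limma adjusted p = 0.0205). On chromosome 9 KO control averaged 107.4 FPM and WT control 17.1, while KO T3 averaged 27.1 and WT T3 18.3. On chromosome 6 KO control averaged 69.6 FPM and WT control 7.63, while KO T3 averaged 10.1 and WT T3 12.1. The difference over both treatments thus lay mainly in the untreated tails. The chromosome 6 call was lost in 5 of 19 alternatives (adjusted p from 0.00639 to 0.172), 4 of them without KO control 2, WT T3 2, WT T3 3 or WT control 2.

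The lower one, chr6:134525308-134527857, had 2.44 and 3.88 FPM in KO T3 1 and 2 and 6.59 and 2.33 in KO control 2 and 3, against 16.7, 9.45 and 7.75 in WT T3 and 13.7 and 12.3 in WT control 2 and 3. All WT values exceeded all KO values, and 3 libraries had no peak. The KO values rest on 2 and 6 fragments in KO T3 1 and 2 and on 4 and 2 in KO control 2 and 3. For KO T3 1 and KO control 3, 2 fragments is the lowest pileup of the list. The log2 difference was -1.76 (SE 0.428, limma adjusted p = 0.0345), and the call was lost in 9 of 19 alternatives (adjusted p from 0.00619 to 0.354), 7 of them leaving out a single library: KO T3 1, KO T3 2, KO control 3, WT T3 1, WT T3 2, WT control 2 or WT control 3.

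The T3 effects of the genotypes differed at 1 end region (0.108% of 923; 0.338% of all regions, 0.169% in each direction; with 12-list scaling 1 higher and 6 lower over all regions and 2 lower among end regions), chr6:135051044-135051664. It averaged 10.1 ± 3.86 in KO T3 (SD, n = 3) against 69.6 ± 9.86 FPM in KO control, and 12.1 ± 1.12 in WT T3 (SD, n = 2) against 7.63 ± 2.51 FPM in WT control. The difference of the effects was -3.57 on the log2 scale (SE 0.661, limma adjusted p = 0.00959). It was lost without WT T3 2, WT T3 3 or WT control 2 (adjusted p from 6.29e-05 to 0.111 over 19 alternatives).

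The tallest end regions were ranked by the median of the 4 group medians, called the group level here (median 7.94 FPM over all end regions). The highest, chr5:3164215-3164871, had 46.3 and 37.5 FPM in KO T3 1 and 2 and 38.7, 33.0 and 46.6 in KO control. It had 63.5, 15.1 and 46.5 in WT T3 and 29.2, 33.2 and 36.9 in WT control. The groups overlapped, and the only missing peak was in KO T3 3. The second, chr2:167229847-167230353, had 28.0 and 33.0 FPM in KO T3 1 and 2 and 16.5 and 29.1 in KO control 2 and 3. It had 36.7, 49.1 and 54.3 in WT T3 and 54.2, 47.8 and 56.4 in WT control, so all WT values lay above all KO values, without passing the test. Next came chr8:2233943-2235126 (group level 35.0 FPM), chr2:169364022-169364759 (34.8), chr8:2220999-2222724 (31.7), chr9:80139077-80139527 (31.4), chr1:178798981-178799676 (31.2) and chr8:2231503-2232855 (30.9). In fragments these 8 reached 40 to 78 at the summit.

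Of those 8, 3 sat in a single group of neighbours on chromosome 8. There 6 end regions lay within 16289 bp, from 2220999 to 2237287, near the low end, each with a group level of 25.9 to 35.0 FPM, against the median of all end regions above. Besides the 3 named, they were chr8:2223451-2224256, chr8:2229185-2230989 and chr8:2236418-2237287. In the tallest, from 2233943, the libraries had 21.9, 30.4 and 66.9 FPM in KO T3 and 19.8 and 25.6 in KO control 2 and 3. They had 36.7, 39.7 and 42.6 in WT T3 and 31.2, 41.0 and 46.3 in WT control. The KO T3 values thus ran from below to above the WT ones, and KO T3 3, the highest, rests on 10 fragments. This group of neighbours was singled out after its values were seen.

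At the most uneven end regions the ratio of the highest to the lowest library was 28.7 at chr5:1060211-1061079, 21.9 at chr3:124721314-124722944 and 20.1 at chr6:8463961-8465150. At the chromosome 3 region KO T3 3 had 53.5 FPM, from 8 fragments, KO T3 1 and 2 had 2.44 and 5.82, and all other libraries with a peak had 3.90 to 10.5.

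End regions were about a kilobase long. Their length had quartiles of 704, 958 and 1348.5 bp and ran from 253 to 5689 bp, against quartiles of 820, 1146 and 1836.5 bp for interior regions. Merged regions grow with the number of peaks that overlap, so peaks were compared within libraries too. The median peak at an end region was 370.5 bp (KO T3 3) to 657.5 bp (WT control 3), longer in all 12 libraries than the median peak of single-list regions (179 to 252 bp), and shorter than the median peak at interior regions in 7 of 12. Over 2000 bp were 132 end regions (8.21%) and 157 interior regions (20.8%). The longest was chr1:191371158-191376846 with 5689 bp and 5 to 15 fragments at its highest summit. It was followed by chr2:570126-573699 (3574 bp, 2 to 19 fragments) and chr5:191617-195122 (3506 bp, 2 to 15 fragments).

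Libraries placed the summit of an end region at similar, not identical, points. The highest summit of a list lay a median of 70 bp from the region's median summit, 58.6% of the 14802 summits lay within 100 bp of it, and the median range of summits over the lists was 482 bp. For interior regions the same values were 81.5 bp, 54.2% and 605 bp. In 369 end regions (23.0%) some list had more than 1 peak, against 290 interior regions (38.4%).

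Neighbouring end regions lay closer together than interior ones. The distance between midpoints had quartiles of 30905, 77180 and 180312 bp at the ends and 44973.5, 327392.5 and 1262379 bp in the interior, with densities of 6.31 and 0.742 regions per Mb. Very close pairs made up a smaller share of the distances at the ends: 108 of 1587 (6.81%) were up to 10000 bp, against 79 of 745 (10.6%) in the interior. By length searched they were more frequent at the ends, with those 108 in 254 Mb and the 79 in 1018 Mb. Up to 50000 bp the shares ran the other way, 35.9% at the ends and 25.8% in the interior. Joined at up to 50000 bp, end regions formed 1038 groups, of which 718 held a single region and 28 held 5 or more. A region of all 12 lists lay within 50000 bp of 13.1% of end regions and 12.7% of interior regions. The median distance to the nearest such region was shorter for end regions, 271261.5 bp against 1437667 bp for interior regions.

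**Figure D5:**
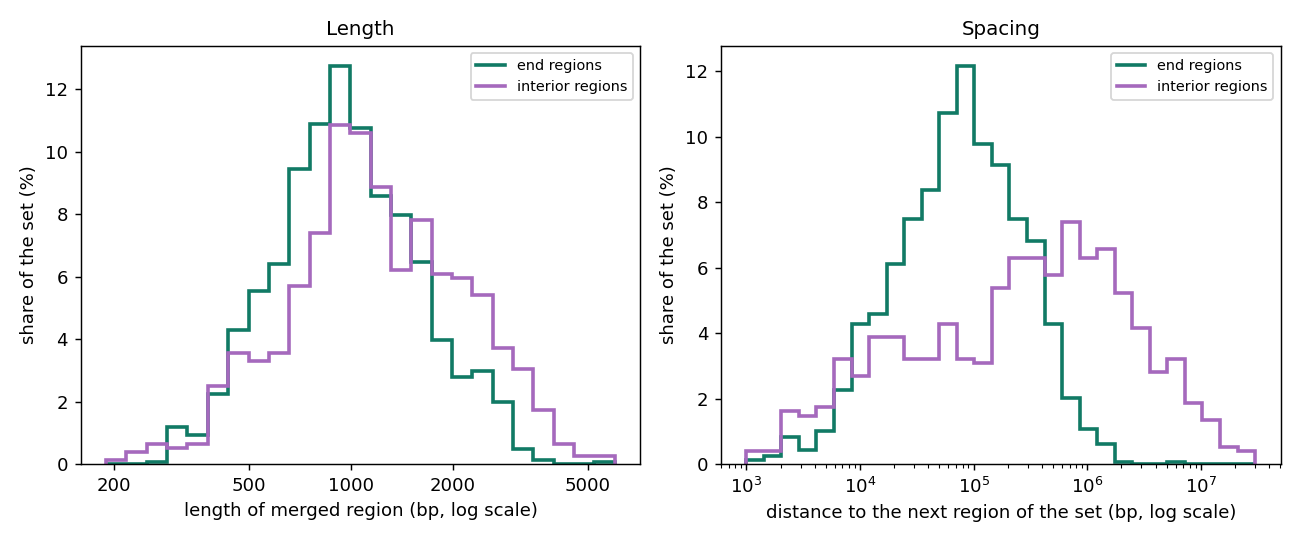
Length of the merged regions (left) and distance between the midpoints of neighbours (right), as the percentage of each set, on log scales, for 1607 end regions and 755 interior regions. End regions have a median length of 958 bp against 1146 bp, and a median spacing of 77180 bp against 327392.5 bp.

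The group with the most members was at the low end of chromosome 8, where 17 end regions lay within 338206 bp, from 130977 to 469182. Its members were of ordinary height, with group levels of 5.98 to 18.9 FPM and a median of 9.70. The outermost, chr8:130977-132021, had 7.76 and 13.4 FPM in KO T3 2 and 3 and 7.03, 9.89 and 5.83 in KO control. It had 6.68, 13.2 and 6.46 in WT T3 and 8.33, 5.85 and 7.96 in WT control. The tallest, chr8:229754-230882, had 28.0 and 9.69 FPM in KO T3 1 and 2 and 24.6, 33.0 and 18.6 in KO control. It had 26.7, 18.9 and 11.6 in WT T3 and 4.17, 10.7 and 16.6 in WT control. In both regions the groups overlapped. The other 8 of those 10, from 148459 to 325151, had medians of 6.51 to 17.4 FPM and 2 to 26 fragments at the summit. Next in size were groups of 10 at the high end of chromosome 8 (116766565 to 116978154) and of 9 at the low end of chromosome 3 (241234 to 410639).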

How the data were processed

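Each of the 12 tail ChIP libraries came with 1 deposited peak list. The submitters' processing notes name MACS2 2.1.1.20160309 and Bowtie2 2.3.4.1. MACS2 called peaks on each library alone with no control, from a file whose name marks removed duplicates, at a q-value cutoff of 0.05 with a local background over 10000 bp on build 9.1, per the file headers. The deposited lists give a pileup (signal: fragments over the summit, unscaled), a fold enrichment (ratio, not compared here), and −log10 of p-values and q-values, per the file headers.

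Depth is the number of filtered fragments that each header states. Where a list had several peaks in a region, the highest was used. Group differences were fitted with limma 3.58.1 (R 4.3.3, moderated with a trend, 4 group means, threshold 0.05), tested on simulated data first. Members, lists and the rule for named regions were chosen with earlier results of these data known. The rule named the 8 tallest members, those called (or the 2 with the smallest p) and up to 3 lacking 1 group. It also named the 3 longest, the 3 outermost, the 3 most uneven, 10 of the group with the most members and the borders. Alternatives were other scalings, thresholds, overlaps and weights, a replicate block, and each library left out in turn. Fits without the 3 shallowest libraries, and over all regions of 8 lists or more, were chosen after seeing the data. Chromosome lengths are the largest peak ends, so true ends lie further out. Pileups at low depth are small counts, so precision is low, and PCR or mapping effects are not in the p-values. Genes and sequences at the regions were not analysed here, because the gene table used here was of another build.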

Additional observations from a re-analysis of the deposited data

Results flagged for a closer look

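At chromosome 6 from 135051044 to 135051664 the T3 effects of the genotypes differed in the test of the difference itself, by -3.57 on the log2 scale (KO effect minus WT effect, limma adjusted p = 0.00959). KO T3 was below KO control and WT T3 was not below WT control, where 1 library of each WT group had no peak and was dropped. It was the 1 end region of the 923 tested that passed this test, while 2 passed with 12-list scaling and 3 with library weights. Of all 1776 regions 6 passed, 7 with 12-list scaling and 19 with library weights.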

How the results depend on the processing

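The crowding at the ends held in every setting run: the share of widely shared regions near ends was 67.5% to 68.4% without 1 library, 70.0% with windows around summits and 65% at the stricter threshold (−log10 q of at least 5). The number of end regions was 1071 to 1364 without 1 library, 338 at the stricter threshold and 1052 for 9 to 11 lists. Median length was 953.5 to 969 bp without 1 library, 781.5 with the stricter threshold, 946.5 with peaks of 3 fragments or more and 979 for 9 to 11 lists. Median spacing was 86945.5 to 116262.5 bp, 382096.5, 96975 and 118056 bp in the same order, since fewer regions lie further apart.

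The mean of library medians without 1 library was 7.21 to 13.7 FPM in KO T3, 7.62 to 9.40 in KO control, 9.24 to 9.73 in WT T3. For WT control it was 7.03 to 7.78. With at least 3 fragments it was 14.6 in KO T3, 10.7 in KO control, 11.7 in WT T3 and 9.29 in WT control. With 0 for a missing peak it was 4.40 in KO T3, 4.53 in KO control, 7.33 in WT T3 and 6.77 in WT control, and with 12-list scaling 9.32, 9.57, 9.18 and 7.79 for the same groups. The order of the groups therefore depends on the setting: KO T3 is highest as reported, lowest with 0 for a missing peak, and below KO control with 12-list scaling. With 0 for a missing peak the medians of KO T3 3 and KO control 1 are 0, since these shallow lists lacked a peak at most end regions.

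Called end regions numbered 6 for KO T3 against KO control, and 3 to 7 without 1 library. They were 3 with the lowest pileup for a missing peak and 2 among regions of 11 or 12 lists. Over all regions tested, 43 of 1776 were called as reported and 25 to 43 without 1 library. There were 19 with the lowest pileup and 46 of 808 among regions of 11 or 12 lists. For KO control against WT control the 3 became 3 to 7, 1 among regions of 11 or 12 lists, 5 when scaled by 12-list regions, at the stricter threshold or with all regions of 8 lists or more, 8 with library weights and 6 without the 3 shallowest libraries. For T3 over both genotypes the 1 became 0 to 2, 0 with the lowest pileup, 2 with all regions of 8 lists or more, 3 with 12-list scaling, 11 or 12 lists or the stricter threshold, and 5 with weights or without the shallow libraries. For KO over both treatments the 3 became 1 to 9, 5 with 12-list scaling or without the shallow libraries, 6 with all regions and 9 with weights. The difference of T3 effects had 0 to 3, 2 with 12-list scaling or without the shallow libraries and 3 with weights. WT T3 against WT control had 0 throughout, and KO T3 against WT T3 had 0 except 1 with weights (6 of 1776 in all). Single libraries decided some counts. Without KO T3 3 there were 7 for KO control against WT control, 9 for KO over both treatments and 3 for the difference of T3 effects, and without KO control 3 there were 3 for KO T3 against KO control. KO over both treatments had 1 without WT control 2 (19 of all 1776). Without KO T3 2 the number of end regions was 1071, under the changed rule given above. Without WT control 2 or WT T3 2 no end region was called for the difference of T3 effects (4 and 2 regions in all). Scaling by 12-list regions moved the median log2 difference of all regions by -0.30 for KO T3 against KO control, 0.12 for KO control against WT control, -0.10 for WT T3 against WT control, -0.18 for T3 over both genotypes and -0.21 for the difference of effects. The causes were not tested. No named region changed its direction in the settings that held it. The stricter threshold held none of the named regions that were called. A lone library left in a group is assumed to vary like the others.

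Of 18 same-numbered pairs 3 had deviations from the group means with a correlation over 0.1, over 384 regions of all 12 lists. These 3 join KO control 3, WT T3 3 and WT control 3 (0.116, 0.142 and 0.212), so those libraries deviated together. In pairs of the same number, KO T3 3 and the libraries numbered 1 or 2 did not reach 0.1. Among pairs of different numbers, KO T3 2 reached 0.127 with KO control 3 and 0.127 with WT control 3. Of 12 libraries 6 correlated best with their own number. Fragment size also followed the number (151 to 171 bp for 1, 179 to 191 bp for 2 and 201 to 209 bp for 3) except in KO T3 3 (142 bp). Since not every pair passed 0.1, the numbers were not taken to pair the libraries. With the replicate block the counts were 4, 3, 1, 2 and 1 for the 5 comparisons with calls and 0 for both others. The block ended the calls from 8463961 on chromosome 6 (limma adjusted p = 0.0932) and from 193434415 on chromosome 1 (0.0747) between KO T3 and KO control, and that from 135051044 on chromosome 6 for KO over both treatments (0.0776).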
